A study of Mus musculus with 3 samples.

Results

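Common deep intragenic summits are positions of histone H3 lysine 9 acetylation (H3K9ac) that lay far inside genes and were called in every library of a study of mouse haematopoietic stem cells (HSCs). A member was a summit of the old list on chromosomes 1 to 19 or X that lay inside a protein-coding gene record of mm10 and over 10 kb from every protein-coding record end. It also had a summit within 500 bp in both the old ABC list and the young list. The rule found 4016 members among 40368 old summits that met the position rule alone and among 108787 old summits in all. They lay in 2493 genes, with 4003 members inside 1 record and 13 inside 2 overlapping records. The members were chosen by their presence in the 3 lists of called summits, so their presence and their scores are descriptions and no test was made of them.

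H3K9ac was profiled by CUT&Tag, which uses an antibody-guided transposase to cut and tag the DNA next to the mark inside cells. The 3 libraries, 1 per group, came from 50000 sorted HSCs each: old HSC with the label ABC (wild type, 18 to 24 months), old HSC (wild type, 18 to 24 months) and young HSC (wild type, 2 to 4 months). The labels do not spell out ABC and give no further treatment. Each group had a single library, so differences between libraries have no replicate check and no p-value is given. The peak names carried sample names that disagreed with the labels: the list labelled old ABC carried oHSC-H3K9ac-2, the list labelled old carried oHSC-ABC-H3K9ac-1 and the list labelled young carried oHSC-H3K9ac-1. The libraries are therefore named by their labels, and every difference between them holds for the labels only. Membership needs a summit in all 3 lists, and with the old ABC or the young list in place of the old list as the anchor the rule gave 3989 or 3981 members.

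The lists held 45386 summits in the old ABC library, 108787 in the old library and 33248 in the young library, and read depth is unknown. Of 8 HSC marker genes, 4 had a summit within 1 kb of a record end in the old ABC list, 7 in the old list and 5 in the young list, beside 44.1%, 57.6% and 42.4% of all 21631 protein-coding genes. Procr, Cd34 and Ly6a were among those with one in all 3 lists. Of 4 B cell markers 0, 1 and 0 had one in the old ABC, old and young lists, and of 4 T cell markers 1, 1 and 0. Of 4 erythroid markers 2, 2 and 1 had one, and of 4 megakaryocyte markers 2, 3 and 1. Of 6 neutrophil and monocyte markers 4, 5 and 4 had one, Mpo, S100a8 and S100a9 among them in each list. The part of other cell types in the members was not tested.

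Acetylation of H3K9 marks active promoters and enhancers. Inside a gene it is found at alternative promoters, from which shorter transcripts start, and at intronic enhancers, which can act on the gene that holds them or on a neighbour. In stem cells of the blood, several transcription factor genes are known to carry such elements within long introns.

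The windows around 6 annotated internal starts with a member are printed to show what such places look like, from CpG-rich to CpG-poor. They were chosen after their values were seen. Internal here means inside the gene record, and whether a start is the main one of its gene was not analysed. Abl1, a tyrosine kinase gene known for alternative first exons, had its member 119 bp downstream of an internal start. Acer3, an alkaline ceramidase gene, had its member 70 bp downstream. In Mecom, whose internal promoter is known to give the EVI1 transcript, the member lay 164 bp downstream. In Foxp1, a forkhead factor gene, it lay 751 bp downstream of the start printed here, and another member lay 175 bp downstream of a further start. Slc7a11, the cystine transporter gene of the ferroptosis pathway, had its member 211 bp upstream, and Elf1, an ETS factor gene, had its member 34 bp downstream. Each window runs from 250 bases before to 50 after the start, 5′ to 3′ on the strand of the gene, from RefSeq on GRCm38.p6: chr2:31759923-31760222 on the plus strand, chr7:98309493-98309792 on the minus strand, chr3:30013155-30013454 on the minus strand, chr6:99028249-99028548 on the minus strand, chr3:50443564-50443863 on the minus strand and chr14:79515424-79515723 on the plus strand. Capitals mark GGGCGG, the SP/KLF letters, or CCAAT, the NFY letters, on either strand.
Abl1: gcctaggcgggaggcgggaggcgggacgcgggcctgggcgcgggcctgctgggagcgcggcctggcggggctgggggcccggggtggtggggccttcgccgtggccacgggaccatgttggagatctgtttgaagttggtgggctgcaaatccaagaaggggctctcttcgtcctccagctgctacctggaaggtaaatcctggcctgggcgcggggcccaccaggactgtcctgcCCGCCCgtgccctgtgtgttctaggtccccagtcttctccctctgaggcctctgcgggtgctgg
Acer3: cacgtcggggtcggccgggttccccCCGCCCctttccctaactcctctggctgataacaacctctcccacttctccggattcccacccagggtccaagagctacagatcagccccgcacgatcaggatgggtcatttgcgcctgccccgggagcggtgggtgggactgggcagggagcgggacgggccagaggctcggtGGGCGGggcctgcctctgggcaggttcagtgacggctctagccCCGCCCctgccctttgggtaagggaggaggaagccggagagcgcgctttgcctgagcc
Mecom: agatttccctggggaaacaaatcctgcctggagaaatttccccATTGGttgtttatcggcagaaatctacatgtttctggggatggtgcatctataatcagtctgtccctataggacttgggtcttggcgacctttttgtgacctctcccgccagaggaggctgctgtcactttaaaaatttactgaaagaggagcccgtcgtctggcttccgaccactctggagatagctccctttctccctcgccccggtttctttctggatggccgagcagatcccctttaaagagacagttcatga
Foxp1: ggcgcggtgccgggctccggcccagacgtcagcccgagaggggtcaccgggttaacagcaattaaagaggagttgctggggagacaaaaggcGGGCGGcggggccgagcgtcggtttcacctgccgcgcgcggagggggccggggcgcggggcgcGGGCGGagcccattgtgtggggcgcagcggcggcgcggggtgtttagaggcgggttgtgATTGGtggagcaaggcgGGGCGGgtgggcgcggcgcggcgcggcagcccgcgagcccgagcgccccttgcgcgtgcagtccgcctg
Slc7a11: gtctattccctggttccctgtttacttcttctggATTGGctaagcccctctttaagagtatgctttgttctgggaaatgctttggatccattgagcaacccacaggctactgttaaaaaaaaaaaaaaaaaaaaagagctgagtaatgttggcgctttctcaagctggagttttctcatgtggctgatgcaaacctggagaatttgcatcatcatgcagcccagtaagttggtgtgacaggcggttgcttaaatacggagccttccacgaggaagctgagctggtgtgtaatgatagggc
Elf1: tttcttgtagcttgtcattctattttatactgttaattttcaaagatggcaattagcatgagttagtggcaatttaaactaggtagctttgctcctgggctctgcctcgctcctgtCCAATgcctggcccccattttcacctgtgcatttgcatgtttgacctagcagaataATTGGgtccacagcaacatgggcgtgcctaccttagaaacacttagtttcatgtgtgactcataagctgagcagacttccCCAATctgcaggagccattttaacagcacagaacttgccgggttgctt
The windows of Abl1, Acer3 and Foxp1 held 20, 20 and 44 CpG dinucleotides, against 9 in Mecom, 4 in Slc7a11 and 3 in Elf1. The SP/KLF letters stood in the 3 CpG-rich windows and in none of the other 3, and the NFY letters in the windows of Mecom, Foxp1, Slc7a11 and Elf1.

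How often a deep intragenic summit of the old list was common followed its score. Of the 40368, 9.95% were common (exact 95% interval 9.66% to 10.2%). The share depends on the length of the old list. It was 28.8% in lists of equal length, and 28.1% and 43.4% of the deep summits of the old ABC and young lists were common with those lists as anchor. A further 6040 (15.0%) had a counterpart in the old ABC list alone, 2909 (7.21%) in the young list alone, and 27403 (67.9%) in neither. The common share was 1.64% among deep summits in the lowest 20 percentiles of the old list's scores, 11.4% between percentiles 60 and 80, 73.6% between 90 and 95, and 95.5% above 99. The rule did not use the score, but whether a summit is called depends on it. Within a bin of score the 3 classes of position had shares much nearer each other than over all scores. Between percentiles 80 and 90, 35.4% (33.8% to 37.0%) of deep intragenic and 39.2% (37.1% to 41.4%) of gene-end summits were common. For intergenic summits it was 35.7% (33.7% to 37.8%), so the gene-end share was somewhat higher in that bin. Over all scores the shares were 9.95% for deep intragenic, 46.8% for gene-end and 10.7% for intergenic summits, and the median old percentile was 44.6 for deep intragenic against 87.9 for gene-end summits.

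**Figure D1:**
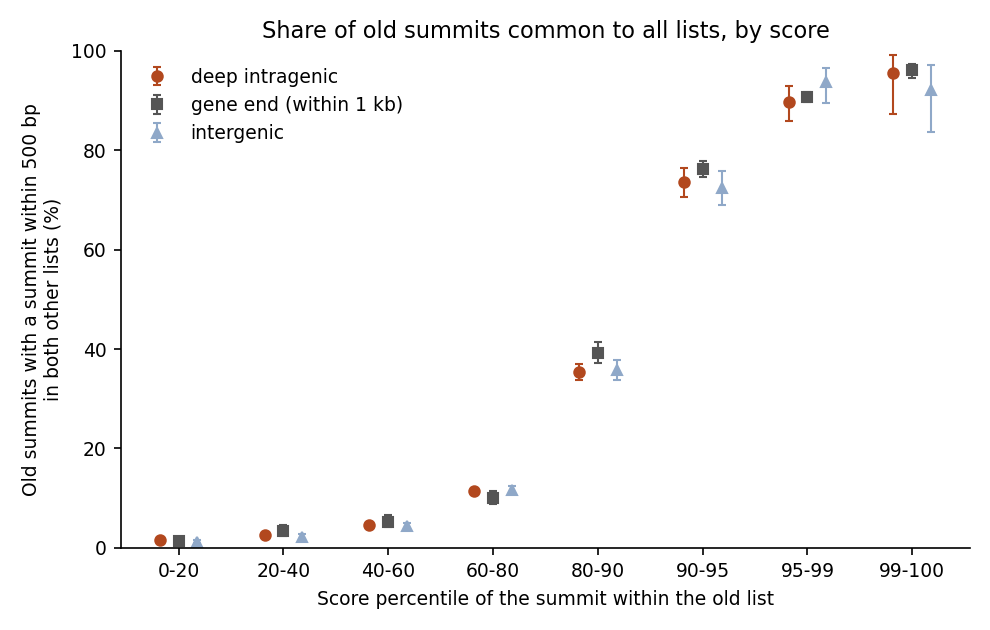
Share of old summits (%, vertical axis) with a summit within 500 bp in both other lists, by score percentile within the old list (horizontal axis), for deep intragenic, gene-end and intergenic summits. Bars are exact 95% binomial intervals (counting error only), and the 3 classes lie close together in each bin, at 73.6%, 76.2% and 72.4% between percentiles 90 and 95.

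The members' ranks differed between the lists as deposited. The medians lay closer together for the smaller set of members found in lists of equal length. A summit's score percentile is its rank within its own list, higher for a higher score. The members' median percentile was 62.5 in the old ABC list, 83.0 in the old list and 51.7 in the young list, and the old deep summits that were not common had a median of 41.0 in the old list. The old list is the longest and the young list the shortest. In lists cut to the 33248 highest scores the rule gave another set of 2662 members, with medians of 62.6, 60.03 and 61.0. The young list has that length uncut, so its higher median there came with the change of members. How list length affects the ranks of the 4016 members was not tested. Across the 4016 members the ranks of the old ABC and old lists had a Spearman correlation of 0.59, those of the old ABC and young lists 0.50 and those of the old and young lists 0.59. These are correlations across summits, which share their library and depth, and are given as descriptions. Of the 402 highest-ranked members of each list, 217 were the same in all 3. Only 4, 2 and 4 members ranked among the 402 highest in the old ABC, old or young list and in the lower ranks, below the median member, in both others.

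The 3 summits of a member lay close to each other. The median distance from the old summit was 85 bp to its old ABC counterpart and 92 bp to its young counterpart. All 3 summits fell within 100 bp for 1258 members (31.3%). The members used 3981 distinct old ABC summits and 3973 distinct young summits, so a few neighbouring members shared a counterpart. Another member lay within 5 kb of 307 members (7.64%), and the median gap to the next member was 52731 bp. Members were thus mostly single sites rather than clusters. Their median distance to the nearest record end was 27544 bp, against 29973.5 bp for old deep summits that were not common, and the farthest lay 708667 bp from any end.

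The members with the highest ranks in every list lay in genes of many kinds. Leaving out the 13 members that were among the 100 highest-scoring summits of a list, the 20 members whose lowest percentile was highest were in Ppp1r9a, Tmem267, Zfp638, Kdm2a, Abl1, Frmd6, the overlapping Cmss1 and Filip1l, Mdga2, Runx3, Sptbn1, Tlk2, Baz1a, Extl3, Ccm2, Rab8b, Zfp708, Psd3, Mrpl48, Usp34 and Larp1. Ppp1r9a encodes an actin-binding scaffold of protein phosphatase, and its member at chr6:4923976 had percentiles of 99.6, 99.9 and 99.5 in the old ABC, old and young lists. Kdm2a encodes a demethylase of H3K36, and its member at chr19:4332907 had percentiles of 99.6, 99.4 and 98.9. Runx3 encodes a RUNX factor of lymphoid and myeloid cells, and its member at chr4:135153806, 33.2 kb from the 5′ end of the record, had percentiles of 99.2, 99.3 and 98.5. These 3 members were near the top of each list alike. The Abl1 member of the printed window, at chr2:31760292, had percentiles of 98.99, 99.5 and 98.9. Tlk2, a kinase gene of chromatin assembly, had a member at chr11:105181585, 58 bp downstream of an internal start, with percentiles of 98.5, 99.7 and 99.1. Sptbn1, a spectrin gene, had its member 476 bp downstream of an internal start, and those of Zfp638, Zfp708 and Mrpl48 lay 90, 246 and 225 bp downstream of one. Members in Tmem267, Baz1a, Mrpl48 and Larp1 had their summit on the same base in all 3 lists.

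The 13 members among the 100 highest-scoring summits of a list were in Chl1, Atrnl1, Sos2, Plcb4, Kctd16, Tmem14a, Smo, Atg4a, Sfi1, 1110004F10Rik, Phf14, Mindy2 and Vps45. The member in Chl1, a neural cell adhesion gene, ranked 2, 3 and 2 in the whole old ABC, old and young lists, on the same base. The member in Atrnl1 ranked 12, 11 and 12. Tmem14a, 1110004F10Rik and Phf14 had theirs 96, 166 and 473 bp downstream of an internal start, and of the other 10, Kctd16 on chromosome 18 was not analysed for starts and none within 1 kb was listed for the rest. No list of artefact regions was used here, and whether scores this high reflect the mark was not tested. Without the 100 highest-scoring summits of each list 4003 members remained.

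Most genes with a member had a single one. Of 2493 genes, 1624 held 1 member, 794 held 2 to 4 and 75 held 5 or more. The genes with the most were Pde4d with 15, Itpr2 and Gse1 with 10, and Baz2b, Akap13, Kalrn, Tiam1, Prkce, Entpd1 and Arid1b with 8 each. Rapgef2, Jazf1, Rere, Cux1 and Osbpl1a held 7, and Foxp1, Lrba, Zfp407, Ksr1 and Chd9 held 6. They include genes of signalling, such as the guanine nucleotide exchange factors Kalrn, Tiam1 and Rapgef2, or of chromatin, such as Arid1b of the SWI/SNF complex and the remodeller Chd9.

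Pde4d encodes a phosphodiesterase that breaks down cyclic AMP, and its record spans 1301.79 kb of chromosome 13. It held 20 deep summits in the old ABC list, 46 in the old list and 23 in the young list, of which 15 old ones were common. The 15 ran over much of the record, between 121 kb and 1269 kb from its 5′ end, and all but the first lay at 558 kb or beyond. The member with the highest rank in the old ABC list, at chr13:109441099, had percentiles of 98.1, 97.7 and 91.0 in the old ABC, old and young lists. The member at chr13:109685791 had the highest ranks in the old and young lists, with percentiles of 90.05, 98.2 and 95.4. The lowest young rank was at chr13:109923236, with percentiles of 43.3, 44.8 and 3.97. No end summit of Pde4d was found in all 3 lists.

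Itpr2 encodes an inositol trisphosphate receptor that releases calcium from the endoplasmic reticulum. It held 23 deep summits in the old ABC list, 41 in the old list and 16 in the young list, and its 10 members lay between 74.4 kb and 382 kb from the 5′ end. Its member at chr6:146222074 had percentiles of 72.3, 91.7 and 84.7. Entpd1 encodes CD39, an enzyme of the cell surface that breaks down extracellular ATP. Of its 12 old deep summits 8 were common (66.7%), and it held 10 deep summits in the old ABC list and 8 in the young list. All 8 young deep summits of Entpd1 thus belonged to members. One Entpd1 member, at chr19:40660402, lay 632 bp downstream of an internal start and had the highest ranks of the 8, with percentiles of 83.9, 94.1 and 78.3. Per Mb of gene sequence over 10 kb from every record end, Sfi1 with 101 members per Mb, Fam107b with 87.2, Lrp5 with 73.4, Entpd1 with 73.2 and Auh with 67.0 were densest among genes with 5 or more. One of the 5 Sfi1 members was among the highest-scoring ones given apart.

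**Figure D2:**
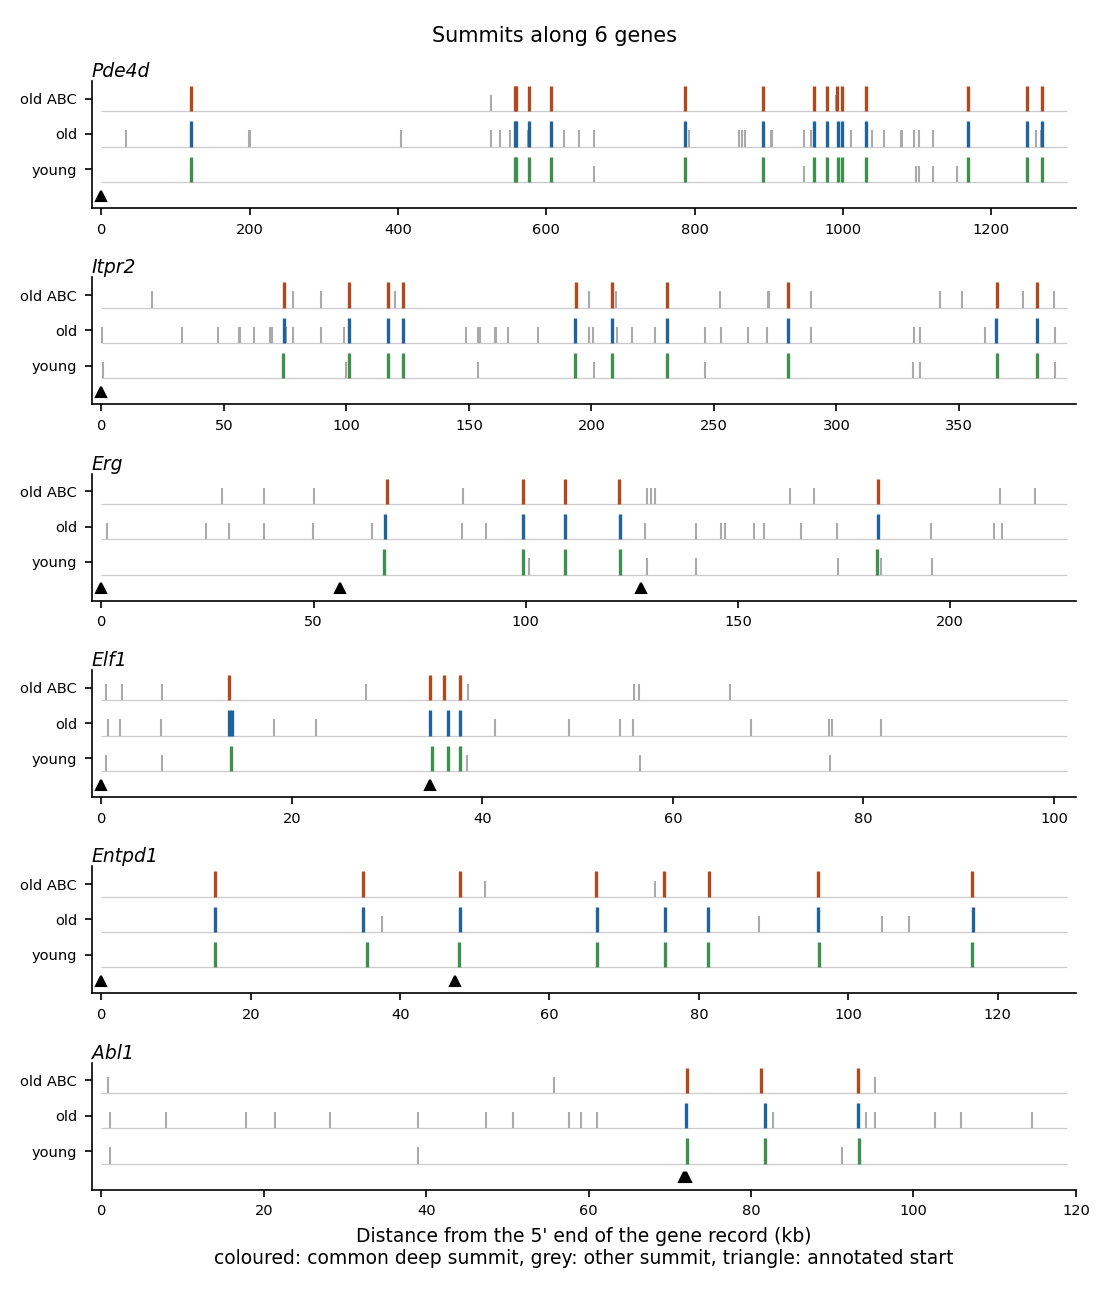
Summits along Pde4d, Itpr2, Erg, Elf1, Entpd1 and Abl1, with the distance from the 5′ end of the record in kb on the horizontal axis and the old ABC, old and young lists from top to bottom. Coloured lines are members, or their counterparts in the other lists, grey lines are other summits and triangles are annotated starts. Elf1, Abl1 and Entpd1 carry a member at an internal start, and the 8 members of Entpd1 spread over its record.

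Transcription factor genes of stem and early progenitor cells often held a member. Of 28 such genes with sequence over 10 kb from every record end, 21 held at least 1, beside 25.4% of all 9823 genes with such sequence. These 28 genes held 44 members, 9.10 per Mb (exact 95% Poisson interval 6.62 to 12.2), beside 5.44 per Mb over all genes. Both measures depend on gene length, since long genes more often held a member but held fewer per Mb. The list's median gene had 108 kb of such sequence. All genes with 60 to 120 kb held a member in 43.6% of cases, against 75% of the list (exact 95% interval 55.1% to 89.3%). They held 8.44 per Mb, a density inside the interval of the list. The list's density pools genes of many lengths, such as Foxp1 with 577 kb and Mecom with 538 kb. All genes with 120 to 300 kb held 5.52 per Mb and those with more 1.90, both below the list's interval. For each list below, the density of all genes in the length class of its median gene is called that of genes of like length. It matches the median gene only, not the mix of lengths that a list's density pools. A deep summit of any kind was found in all 28 genes in the old ABC list, in 27 in the old list and in 24 in the young list, beside 50.4%, 68.2% and 40.9% of all genes.

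Erg, an ETS factor that maintains HSCs, held 15 deep summits in the old ABC list, 23 in the old list and 11 in the young list, and 5 members. Its member at chr16:95487244, 99.4 kb from the 5′ end, had percentiles of 92.3, 95.2 and 66.2 in the old ABC, old and young lists. The member at chr16:95403646, 183 kb from the 5′ end, had percentiles of 71.5, 86.6 and 64.8. The other 3 were in lower ranks of the young list, at percentiles of 23.6 or less. The highest-ranked old and young summits of Erg were not members. They lay at 128.03 kb (percentile 97.6) and 128.566 kb (96.7), over 500 bp apart and near an annotated start at 127.252 kb. The old ABC list had a summit at 128.566 kb too, at percentile 89.0. Elf1 held 5 members, of which 2 lay 291 bp apart and shared their counterparts. The Elf1 member of the printed window, at chr14:79515708, had percentiles of 94.9, 97.4 and 97.0, and one at chr14:79518842, 37.7 kb from the 5′ end, had 98.4, 98.5 and 89.98. Both thus ranked high in every list.

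Runx1, a factor needed for the emergence of HSCs, held 7 deep summits in the old ABC list, 28 in the old list and 2 in the young list, and 1 member. That member, at chr16:92784133, lay 41.9 kb from the 5′ end and had percentiles of 56.1, 81.7 and 65.5. Whether the site acts on Runx1 was not measured. Mecom, a zinc finger factor of HSC self-renewal, held 8, 22 and 3 deep summits in the old ABC, old and young lists, and its only member was the one at the printed internal start, at chr3:30013040, 497 kb from the 5′ end. Its percentiles were 43.2, 90.5 and 53.3. Neither end of the Mecom record had a summit within 1 kb in any list. The single members of Meis1, a homeobox factor, at chr11:19008143, and of Fli1, an ETS factor, at chr9:32468180, had percentiles of 63.6, 88.0 and 16.5 and of 75.1, 84.6 and 42.2. Etv6, an ETS factor needed for adult HSCs, held 2 members, with percentiles of 44.9, 81.9 and 40.5 and of 27.2, 36.4 and 0.832.

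Ikzf1, the Ikaros gene of lymphoid cells, held 3, 6 and 2 deep summits in the old ABC, old and young lists and no member. Kit, the stem cell factor receptor gene, held 2, 8 and 0 and no member. Myb held 1, 0 and 0, and Cd34, with 2.47 kb of sequence that could hold a member, had none in any list. Sphk2, a sphingosine kinase gene, had no sequence that could hold one. Myb and Cd34 had no old deep summit and so could hold no member, and Kit had no young deep summit. Foxp1 held 17, 64 and 14 deep summits and 6 members, 2 of them at internal starts. The Foxp1 member at chr6:99266340 was on the same base in all 3 lists, with percentiles of 78.5, 93.6 and 79.5, and the one at the printed start had 89.6, 98.6 and 92.2.

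Of the lists of signalling enzymes, chromatin regulators and histone acetylation genes, the chromatin list alone had an interval above the density for the length class of its median gene. This depends on the class chosen. All genes with 120 to 300 kb held 5.52 per Mb, below the intervals of both the signalling enzyme and the chromatin list. The signalling enzyme list includes long genes such as Pde4d, with 1282 kb of such sequence. Of 39 genes of kinases, phosphatases and second messenger enzymes, 22 held 56 members, 7.66 per Mb (5.79 to 9.95), against 8.44 per Mb in genes of like length. The share of genes, 56.4%, stood beside 43.6% of genes of like length and 25.4% of all genes. In this list, Prkce, protein kinase C epsilon, held 8 members, and Pde4b, another cyclic AMP phosphodiesterase, held 4. Of 39 chromatin and DNA methylation regulators, 15 held 46, or 11.9 per Mb (8.70 to 15.8), against 8.44 per Mb in genes of like length. The share of its genes with a member was 38.5%, beside 25.4% of all genes and 43.6% of genes of like length. Arid1b, Chd9 and Ncoa2 held 20 of these 46, so a few long genes carried much of that density. The Kdm2b member at chr5:122899248, in a gene for another H3K36 demethylase, was on the same base in all 3 lists and had percentiles of 93.0, 95.3 and 89.5. Of 26 histone acetylation genes, 10 held 17, which is 7.06 per Mb (4.12 to 11.3), an interval that holds both the 9.54 per Mb of genes of like length and the 5.44 of all genes. Their share with a member, 38.5%, stood beside 31.1% of genes of like length and 25.4% of all genes. Hdac9, Hdac4 and Crebbp held 4, 3 and 2.

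Of 30 cytokine receptor and JAK-STAT genes, 8 held 12 members, or 7.02 per Mb (3.63 to 12.3), against 9.54 per Mb in genes of like length. The share of genes, 26.7%, stood beside 31.1% of genes of like length and 25.4% of all genes. Jak2, a kinase gene of cytokine signalling, held 2, of which the one at chr19:29264992 had percentiles of 80.9, 86.8 and 62.6. Of 17 lymphoid regulators 6 held 9, or 5.50 per Mb (2.52 to 10.4), against 8.44 per Mb in genes of like length. They included 3 members in Bach2 and 2 in Notch1. The share of lymphoid regulators with a member was 35.3%, beside 43.6% of genes of like length and 25.4% of all genes.

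Sphingolipid genes, which the study's title names, held members in 8 of 25 genes, 6.43 per Mb (3.08 to 11.8). The interval holds the 9.54 per Mb of genes of like length. The share of genes, 32%, stood beside 31.1% of genes of like length and 25.4% of all genes. The Acer3 member of the printed window, at chr7:98309472, lay 11.7 kb from the 5′ end of the record and had percentiles of 98.5, 99.2 and 96.1 in the old ABC, old and young lists, with its 3 summits within 4 bp. Cerk, the ceramide kinase gene, and Cers6, a ceramide synthase gene, held 2 members each. The Cerk member at chr15:86156391 was on the same base in all 3 lists and had percentiles of 82.3, 70.2 and 49.7. The Cers6 member at chr2:68907928 had percentiles of 82.9, 91.3 and 38.8. The Sgms1 member, in a sphingomyelin synthase gene, had percentiles of 9.17, 85.3 and 70.6, and was thus in the low ranks of the old ABC list only. With 1 library per group it is not known whether another old ABC library would give it the same rank.

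Genes of iron handling and ferroptosis, also in the study's title, held members in 6 of 23 genes, 11.2 per Mb (4.86 to 22.2), against 10.6 per Mb in genes of like length. The share of genes, 26.1% (10.2% to 48.4%), stood beside 17.4% of genes of like length and 25.4% of all genes. Besides Slc7a11 these were Aco1 and Ireb2, the genes of both iron regulatory proteins, Lpcat3, a phospholipid acyltransferase gene, Gch1, which makes tetrahydrobiopterin, and Por, a cytochrome P450 reductase gene. The Slc7a11 member at chr3:50443824 had percentiles of 73.0, 92.8 and 70.0, and Slc7a11 held 1, 4 and 3 deep summits in the old ABC, old and young lists. The Por member, at chr5:135689733, lay 588 bp downstream of an internal start and had percentiles of 85.3, 96.0 and 93.0. The Gch1 member at chr14:47178141 had percentiles of 32.6, 95.1 and 68.0. Acsl4, whose product makes the lipids that ferroptosis oxidises, held no deep summit in any list. It had 52.8 kb of sequence that could hold a member. It lies on chromosome X, where old deep summits were scarce, at 5.31 per Mb. Of the 23 genes, 15 held an old deep summit, so Acsl4 was not the only one without.

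Among genes of differentiated cells, 4 of 12 megakaryocyte and platelet genes held 5 members (8.16 per Mb, 2.65 to 19.04), and 7 of 16 erythroid genes held 14 (7.91 per Mb, 4.32 to 13.3). Genes of like length held 9.54 per Mb for both lists. The shares of genes were 33.3% and 43.75%, beside 31.1% of genes of like length and 25.4% of all genes. Vwf, the platelet adhesion gene, held 6, 14 and 4 deep summits in the old ABC, old and young lists and 2 members. The Vwf member at chr6:125573163 had percentiles of 70.9, 85.6 and 23.7. Neutrophil and monocyte genes held 3 members in 2 of 8 genes (25%), which is 23.1 per Mb (4.75 to 67.4), the highest density of the lists. B, T and natural killer cell genes held 2 in 2 of 14 (14.3%), or 2.78 per Mb (0.336 to 10.03), and stroma and endothelium genes 10 in 5 of 21 (23.8%), or 7.66 per Mb (3.67 to 14.1). A member was held by 25.4% of all genes and by 17.4% of genes of like length, which had 10.6 per Mb. The B, T and natural killer cell interval alone lay below 10.6 per Mb, and these lists have few genes. That list includes Skap1, with 275 kb, in a longer class that held 5.52 per Mb, inside the interval. Long genes of nerve, muscle and other tissues stood lowest of the lists, with 12 members in 7 of 40 genes and 48.4 Mb, or 0.248 per Mb (0.128 to 0.433). Their median gene had 1117 kb of such sequence, and all genes with over 300 kb held 1.90 per Mb. A member was held by 17.5% of the list, against 43.6% of all genes with over 300 kb. Old deep summits of any kind were also few there, at 3.62 per Mb against 54.7 per Mb over all genes. Over all lists, 145 of 368 genes held a member, beside 2493 of all 9823 genes (25.4%), and such shares depend on gene length.

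**Figure D3:**
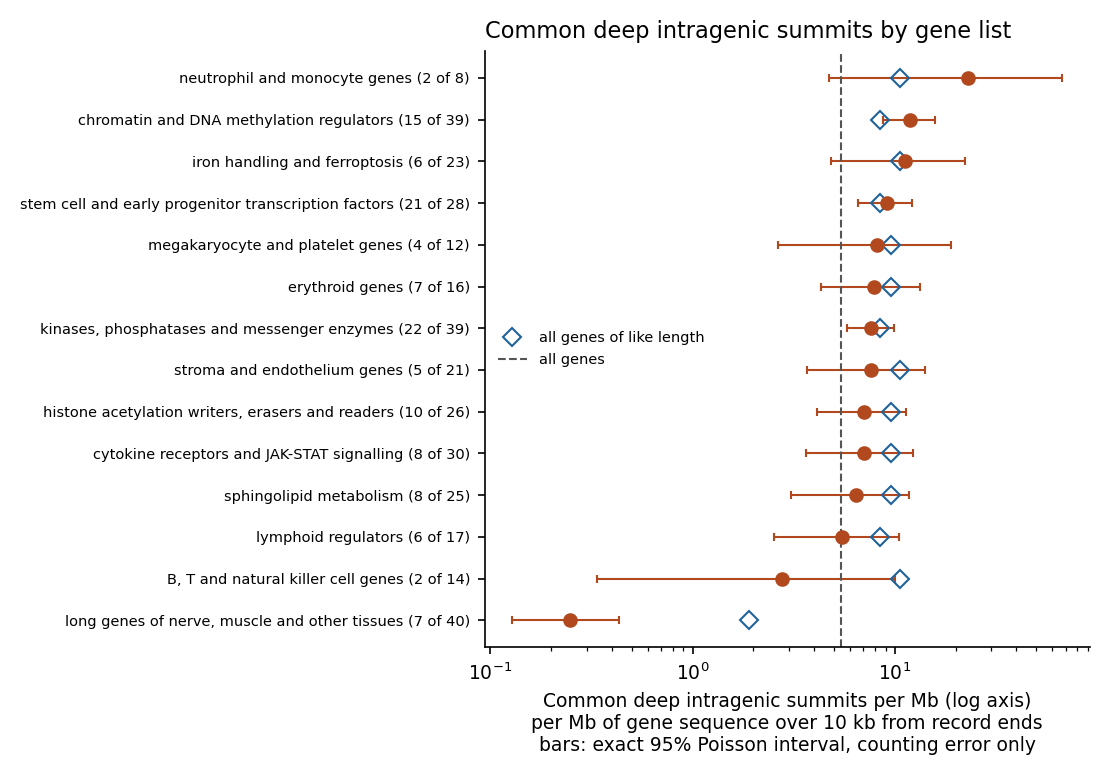
Members per Mb of gene sequence over 10 kb from every record end (horizontal log axis) for 14 gene lists, with the genes holding a member of those with such sequence in brackets. Bars are exact 95% Poisson intervals (counting error only) the dashed line is the 5.44 per Mb of all genes, and open diamonds are all genes in the length class of the list's median gene. The long genes of other tissues stand at 0.248 per Mb, below the 1.90 of genes of like length, and most other intervals include the diamond.

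A small part of the members lay at starts annotated inside the holding gene. On chromosomes other than 18, which was not analysed for starts, 287 of 3868 members (7.42%, 6.61% to 8.29%) lay within 1 kb of such a start, against 420 of 35170 old deep summits that were not common (1.19%, 1.08% to 1.31%). Starts were listed for 17274 protein-coding genes, and 1996 of the 2493 genes with a member had a known strand. Summits in genes with no listed start counted as near no start, so these shares can be too low. Score went with this: the share was 0.685% of members below percentile 20 of the old list, 5.19% between 80 and 90, and 47.5% above 99. Within a bin of score the common share of summits at internal starts was 45.3% (36.7% to 54.0%) between percentiles 80 and 90 and 71.4% (62.4% to 79.3%) between 90 and 95, against 35.0% (33.3% to 36.7%) and 73.7% (70.4% to 76.8%) of summits at none. Members at internal starts had median percentiles of 80.9, 93.6 and 78.1 in the old ABC, old and young lists, against 61.0, 81.6 and 49.8 for members near no annotated start.

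The summits lay downstream of these starts in each list. The median signed distance was 140 bp in the old ABC list, 147 bp in the old list and 180 bp in the young list, where positive is downstream. The summit was downstream for 72.8%, 78.0% and 76.0% of the 287 members. All 3 summits lay on the same side of the start for 245 members (85.4%).

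**Figure D4:**
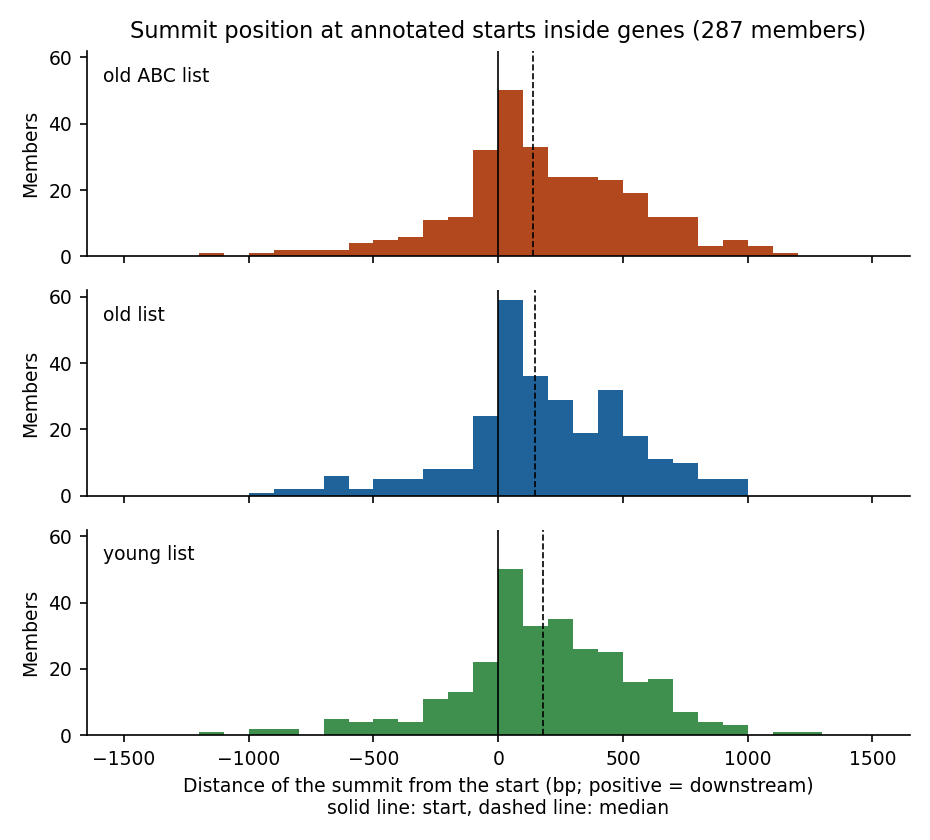
Number of members (vertical axis) by the signed distance in bp of the summit from the nearest annotated start inside the holding gene (horizontal axis, positive downstream), for the old ABC, old and young lists from top to bottom. The 287 members peak just downstream of the start in every list, with medians of 140, 147 and 180 bp.

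Seen from the starts, 316 of 1490 internal starts (21.2%) had a member within 1 kb. A summit of any kind lay within 1 kb of 30.7% of them in the old ABC list, 46.6% in the old list and 27.0% in the young list. Starts with a member had more CpG dinucleotides, with a median of 12 in the 300-base window against 5 in starts without one and 13 over all 21045 coding starts of the table. Their median GC content was 56.8% against 51.0%. The share with a member was 6.69% of starts with 0 to 2 CpG, 20.8% of those with 6 to 10 and 39.0% of those with 11 to 20. With 21 or more it was 38.2%, no higher than in the bin before.

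**Figure D5:**
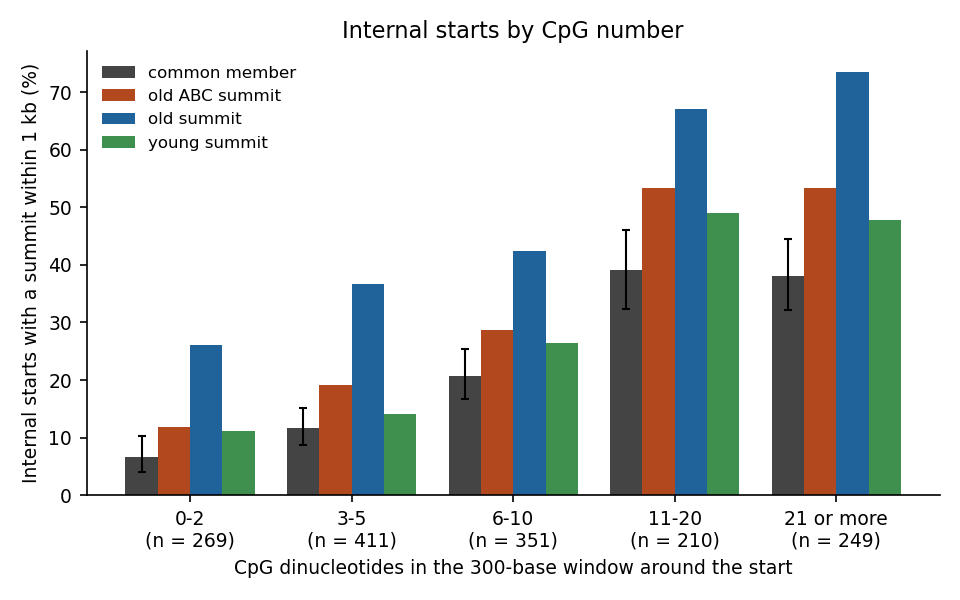
Share of internal starts (%, vertical axis) with a member, an old ABC, an old or a young summit within 1 kb, by the number of CpG dinucleotides in the 300-base window (horizontal axis, number of starts below each bin). Bars on the member shares are exact 95% binomial intervals. All 4 shares are higher at 11 to 20 CpG than at 6 to 10, and the member share is 39.0% there.

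The same held for GC-rich motifs, searched on both strands in these windows. GGGCGG, the SP/KLF letters, stood in 49.4% of starts with a member, 27.2% of those without one and 46.7% of all coding promoters. CCGGAAG, an ETS motif, stood in 7.91%, 3.15% and 11.7%. CCAAT, the NFY letters, stood in 31.3% (26.3% to 36.8%), 37.0% (34.2% to 39.8%) and 38.5%, and the intervals overlap. TGACTCA of AP-1 stood in 3.48%, 6.22% and 4.69%, TGTGGTT of RUNX factors in 3.80%, 5.62% and 4.74%, and AGATAAG of GATA factors in 2.22%, 2.73% and 2.63%. The AP-1, RUNX and GATA shares rest on 11, 12 and 7 of the 316 starts with a member. Their intervals overlap those of starts without one. GGGCGG and CCGGAAG contain CpG, and CpG number was not held fixed in these shares. Each is a match of letters in a window, and the presence of a factor was not measured.

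A few members lay within 1 kb of an annotated miRNA. Of the miRNAs with a mature sequence in the RefSeq table, 2 are printed, Mir744 because a member fell within its hairpin and Mir148a as a widely studied miRNA. They were chosen after their values were seen. Mir744 lies inside Map2k4, a kinase gene of the JNK pathway, and the member at chr11:65734734 overlapped its hairpin. Mir148a lies inside the Gm38821 record, and the member at chr6:51270445 was 535 bp from it. The mature sequences are given 5′ to 3′ with the seed, bases 2 to 8, in capitals, for miR-744-5p at chr11:65734799-65734820 and miR-148a-3p at chr6:51269829-51269850, both on the minus strand of GRCm38.p6.
mmu-miR-744-5p: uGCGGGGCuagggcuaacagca
mmu-miR-148a-3p: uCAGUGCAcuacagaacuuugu
The member at Mir744 had percentiles of 90.1, 90.2 and 69.9 in the old ABC, old and young lists, and that at Mir148a 26.6, 83.0 and 72.0. Their seeds differ. Members also lay within 1 kb of Mir3092 in Fndc3b, Mir7687 in Gse1 and Mir1904 in Pde4d, at 130, 170 and 958 bp. The end of any noncoding or pseudogene record lay within 1 kb of 4.13% of members, against 2.87% of old deep summits that were not common.

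Long genes more often held a member than short ones. Of genes with up to 10 kb of sequence over 10 kb from every record end, 4.80% held one, of those with 120 to 300 kb 48.7%, and of those with more 43.6%. Per Mb the order was the opposite, with 10.8 members in genes of up to 10 kb, 5.52 in those of 120 to 300 kb and 1.90 in those with more. Genes with a member more often had an end summit in all 3 lists, at 46.8% (1166 of 2493) against 40.5% (2967 of 7330). Within classes of length the gap was wider in the longer genes, with 41.7% against 23.4% at 120 to 300 kb and 26.4% against 10.2% above 300 kb. Along the gene, 52.7% of the 3228 members in genes of known strand lay nearer the 5′ end, against 48.6% of old deep summits that were not common. For members with no internal start within 1 kb it was 51.7%. It varied with score, at 38.9% of members between old percentiles 0 and 20 and 64.2% between 95 and 99. Score was not held fixed in the comparison with summits that were not common.

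On the autosomes members ranged between 4.09 per Mb on chromosome 1 and 7.83 per Mb on chromosome 11. Chromosome X held 26 members, or 0.780 per Mb, and its old deep summits were as scarce, at 5.31 per Mb against 43.3 to 78.3 on the autosomes. The common share on X was 14.7%, against 8.43% to 11.8% on the autosomes.

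The limits of the rule cut through a continuum. Just inside 500 bp, the farther counterpart lay at 500 bp for the member in Rabgap1l and at 499 bp for those in Itgb5 and Tmem273, and just outside it lay at 501 bp in Itsn2 and Psmb7. The Itsn2 summit had scores of 3.87, 6.65 and 2.48 in the old ABC, old and young lists, and the members' median scores were 4.83, 9.13 and 4.57. Just inside the limit of 10 kb, members in Glrp1, Trappc8 and Csk lay 10001, 10006 and 10006 bp from a record end. Just outside it, summits in Dera, Plxnc1 and Vipr2 lay at 9996, 9993 and 9990 bp.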

How the data were processed

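H3K9ac CUT&Tag was measured in 3 libraries, 1 per group. The submitters' processing notes name mm10 as the build and BWA, Picard, MACS2 and edgeR as tools, with roles, versions, control library and settings not given in the sources used here. The deposited lists held 1-bp summits with a score, read as the −log10 q-value of the authors' peak calling because the lowest score of every list lies just over 1.30, the −log10 of 0.05. Lists were deposited per sample, and calling was taken to be per library. Scores depend on depth, which is unknown, and were used only to rank and filter within a list.

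Groups came from the labels. Summits were classed with the 21631 protein-coding records on chromosomes 1 to 19 and X of a RefSeq table of GRCm38.p6, the assembly behind mm10. Starts, strands, miRNAs and sequences came from RefSeq tables of that build. Exons and UTRs were not analysed here. The rule was tested on simulated data. Gene-end summits lay within 1 kb of a record end, and intergenic ones outside every record and over 10 kb from every end. With a single library per group nothing was tested. Intervals are exact 95% Clopper-Pearson or Poisson intervals and cover counting error only.

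The members and the 15 gene lists (520 genes) were chosen with earlier results of these data known, and the result of 1 list and a few gene names are not reported here. Named genes were the 20 with most members, the 20 members with the highest lowest percentile, up to 5 genes per list, the 5 densest with 5 or more members, and Runx1, Erg, Fli1, Meis1, Mecom, Etv6, Ikzf1, Kit, Vwf, Cd34, Myb, Sphk2 and Slc7a11, 115 genes in all. The 13 members among the 100 highest-scoring summits of a list were given apart. Marker genes, Acsl4, the printed miRNAs and genes at the limits of the rule stand outside that rule. The comparison with genes of like length was added after the values were seen. A total of 14 alternatives changed the score, list length, distances, libraries required, anchor list or summits kept. Python 3.11.15, numpy 2.4.6, pandas 2.3.3, scipy 1.17.1 and matplotlib 3.10.9 were used.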

Additional observations from a re-analysis of the deposited data

Results flagged for a closer look

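Summits on sequences other than chromosomes 1 to 19 and X were outside the rule. There were 46 in the old ABC list, 66 in the old list and 40 in the young list. They comprised 2, 14 and 3 on chromosome Y, 8 in each list on the mitochondrial genome, and 36, 44 and 29 on unplaced or unlocalised sequences. No control library was used here, and the origin of these summits was not tested.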

How the results depend on the processing

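No paired analysis was possible because each group had 1 library and no result comes from a test. Values are given as members, then genes, and shares of deep intragenic, gene-end and intergenic summits; median percentiles and counts run old ABC, old, young. In the main analysis, 4016 members in 2493 genes had a median larger offset of 148 bp, their genes a median of 7 deep summits of the old list, and 145 list genes held one. At a score of at least 5, 1176 members in 970 genes were left, with 9.21% and 48.6% of deep and gene-end summits common, percentiles of 55.9, 80.2 and 45.1, an offset of 101 bp, 3 deep summits per gene and 55 list genes. At a score of at least 10, 299 members in 282 genes were left, with 33.7% of gene-end and 12.02% of intergenic summits common, percentiles of 60.9, 83.7 and 54.7, an offset of 66 bp, 1.5 deep summits per gene and 21 list genes. With lists of equal length (33248 summits), there were 2662 members, shares of 28.8%, 65.4% and 30.8%, percentiles of 62.6, 60.03 and 61.0, an offset of 130 bp and 2 deep summits per gene. Sharing within 250 bp gave shares of 7.58%, 37.0% and 8.27%, percentiles of 65.3, 84.1 and 54.6 and an offset of 110 bp. Sharing within 1000 bp gave 11.9%, 54.7% and 12.5%, percentiles of 60.3, 80.6 and 49.9 and an offset of 178 bp. Over 5 kb from record ends, 10.3% of deep summits were common, with 6 deep summits per gene. Over 20 kb, 2645 members in 1586 genes were left, with 9.59% common. Without summits near noncoding record ends the intergenic share was 9.88%. With the old ABC list as anchor, shares of that list's own summits were 28.1%, 65.8% and 30.3% and the genes held 3 of its deep summits. With the young list as anchor they were 43.4%, 70.5% and 46.6%, and 2.

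With the old ABC library not required there were 6925 members, shares of 17.2%, 55.8% and 17.4%, percentiles of 74.3 in the old and 41.8 in the young list, an offset of 103 bp and 6 deep summits per gene. With the young library not required there were 10056 members in 4229 genes, shares of 24.9%, 57.7% and 24.95%, percentiles of 47.4 in the old ABC and 69.2 in the old list, an offset of 99 bp, 6 deep summits per gene and 218 list genes. Over the alternatives the number of members thus ranged between 299 and 10056. Merging neighbours (3971 members) and leaving out the 100 highest-scoring summits of each list (4003) moved none of these values beyond their limits. Over the main results 74 values moved and 78 did not, and over the counts of genes in single lists 58 moved and 152 did not; both score limits lowered the count of all 15 lists. In each alternative the gene-end share was the highest of the 3. Depth is unknown, so a missing summit in a list cannot be told apart from one too shallow to be called.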
